A study of Mus musculus with 6 samples.

Results

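The mitochondrial ribosomal protein genes were the 78 of 33965 genes in the table whose symbol is Mrpl or Mrps followed by a number and at most 1 letter. By symbol, 49 belonged to the large subunit and 29 to the small subunit, and they lie on 17 chromosomes. They were measured by poly-A selected, paired-end RNA-seq in 6 MC38 tumors. MC38 is a mouse colon cancer cell line, and the cells were grown under the skin of C57BL/6 mice, which the study's methods describe as 6-week-old females. All mice carried the same tumor line and no engineered allele is named. In 3 tumors (PBS tumors 1 to 3) the mice received only PBS, the vehicle control, and in the other 3 (GB2 tumors 1 to 3) they received GB2, a prodrug given into a vein in which a disulfide bond links a TREM2 inhibitor (ART) with a STING agonist (MSA-2). The dose and duration of treatment of the sequenced tumors were not stated separately. The labels do not say that each tumor came from a separate mouse, so p-values measure only the spread between these samples. The comparison asked how GB2-treated tumors differ from untreated tumors, here for the protein part of the mitochondrial ribosome and for its large against its small subunit.

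The mitochondrial ribosome translates the few mRNAs encoded by mitochondrial DNA, all of which specify membrane-embedded parts of the respiratory chain and ATP synthase. Its rRNAs are transcribed inside the organelle, while its proteins are encoded in the nucleus, made on cytosolic ribosomes and imported. The small subunit binds the mRNA and holds the decoding center, and the large subunit forms the peptide bond and passes the new chain towards the inner membrane. Some members are homologs of bacterial ribosomal proteins and others are found only in mitochondria. Mrps18a and Mrps30 carry small subunit symbols but sit in the large subunit, and Mrps36 is now assigned to the oxoglutarate dehydrogenase complex. All were kept in the class of their symbol here.

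The libraries held between 64764405 and 83690056 estimated counts, and 19602 genes passed the filter on low counts. PBS tumor 1 stood apart from the other 5 tumors in the genes described here, so log2 fold changes of GB2 against PBS tumors are given with all tumors and without it. No member was at 0 in any tumor. Their counts ran from 689 to 23704 per tumor, and all 78 were tested. The MC38 label rests on the sample description, because the epithelial markers looked at (Epcam, Krt8, Krt18, Krt19, Cdh1 and Cldn7) summed to only 2.65 to 7.70 CPM (counts per gene scaled to a common library size) and 4 of these 6 genes passed the filter. In bulk tumors, fewer cells of a type and less RNA per cell cannot be told apart.

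Levels between genes were compared as FPKM, which is divided by transcript length. The mean FPKM over the 6 tumors ranged from 4.09 for Mrpl1 to 99.4 for Mrpl12, with a median of 17.0 for large and 15.2 for small subunit genes. Mrpl12, a protein of the stalk that recruits translation factors, had FPKM values of 224, 64.5 and 70.1 in PBS tumors and 74.0, 76.6 and 87.3 in GB2 tumors. Its value in PBS tumor 1 lay far above the rest, and the GB2 tumors lay above the other PBS tumors. The next highest large subunit genes were Mrpl18, a protein of the central protuberance, with a mean FPKM of 64.6, and Mrpl53, a protein found only in mitochondria, with 62.0. Among small subunit genes Mrps23 (47.9), Mrps21 (38.5) and Mrps33 (31.2) had the highest mean FPKM. Mrps21 is a homolog of a bacterial protein and the other two are specific to mitochondria.

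The lowest mean FPKM values were those of Mrpl1 (4.09) and Mrpl32 (4.76) in the large subunit and of Mrps16 (5.08) and Mrps30 (5.48) in the small subunit. Mrpl1 belongs to the mobile stalk beside the tRNA exit site, and Mrpl32 and Mrps16 are homologs of bacterial proteins. The FPKM of Mrpl33 was low beside its count. The transcript length implied by count and FPKM was divided by the median annotated coding transcript of each gene. For Mrpl33 this ratio was 8.73 times its median over tested genes, whereas 40 of 78 members lay within 1.5-fold of that median. Ranks by FPKM thus depend on the transcript models that the authors used.

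**Figure D1:**
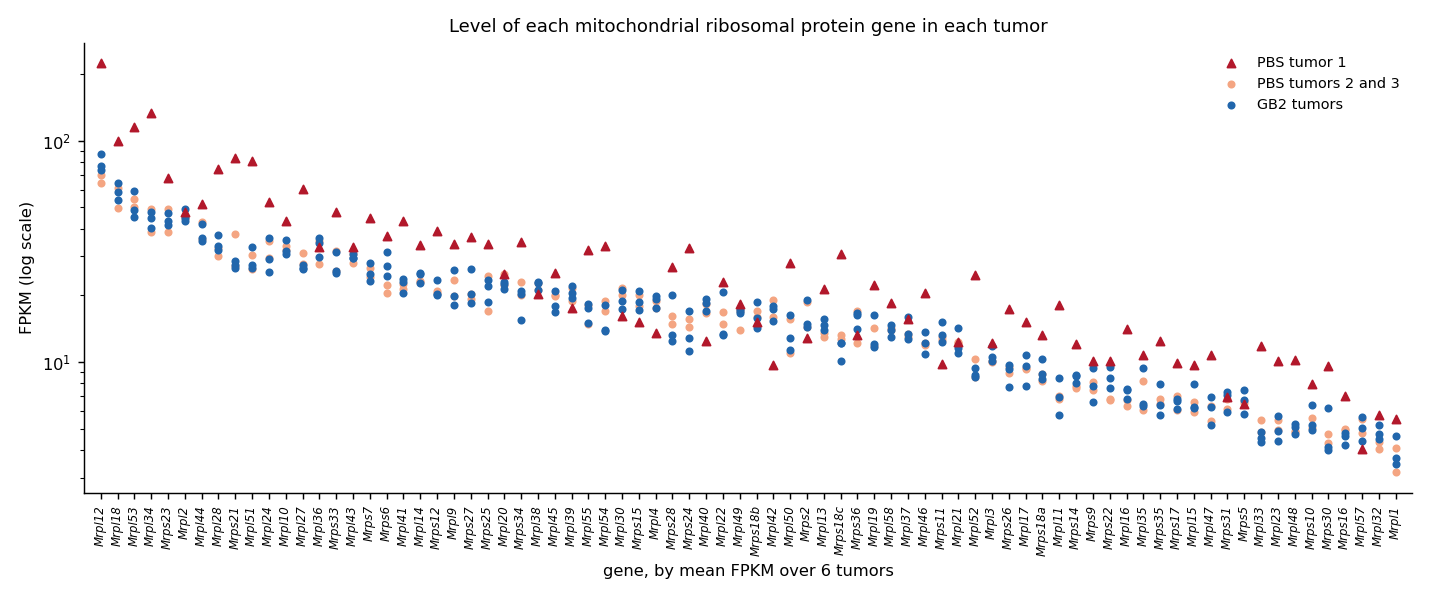
FPKM (log scale) of the 78 genes in each tumor, ordered along the horizontal axis by mean FPKM over the 6 tumors; triangles are PBS tumor 1, light circles the other PBS tumors and dark circles the GB2 tumors. Mean levels run from 99.4 (Mrpl12) to 4.09 (Mrpl1), and the triangle is the highest point for most genes.

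No mitochondrial ribosomal protein gene was called different between GB2 and PBS tumors, but their fold changes leaned to one side. The log2 fold change was below 0, lower in GB2 tumors, for 70 of 78 members (45 of 49 large and 25 of 29 small), against 51.7% of all genes tested. The median log2 fold change was -0.31 for the large subunit and -0.33 for the small subunit, against -0.016 over all genes tested, and the members ranged from -0.96 to 0.14. The limits for a call were an adjusted p under 0.05 together with a change of at least 2-fold, and at these limits the edgeR quasi-likelihood test (Benjamini-Hochberg adjusted) called 0 members and 0% of all genes. The smallest adjusted p of a member was 0.746. At an unadjusted p under 0.05, edgeR gave 0 members lower in GB2 tumors (2.24% of all genes) and 0 higher (4.69%). DESeq2 gave 3 members lower at that limit (Mrps21, Mrps18c and Mrpl33) against 2.3% of all genes. The counts at the unadjusted limit are a description of the list.

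In 4 members every GB2 tumor lay below every PBS tumor, Mrpl27, Mrpl33, Mrps16 and Mrps18c, or 4 of 78 against 6.68% of all genes. In no member did every GB2 tumor lie above every PBS tumor, against 8.61% of all genes. For a single gene, the exact two-sided permutation test of 3 against 3 tumors cannot give a p below 0.1.

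Among the large subunit genes with the smallest p, Mrpl33, a homolog of a bacterial protein, had 101, 36.8 and 41.1 CPM in PBS tumors and 32.0, 34.8 and 35.8 CPM in GB2 tumors. The groups did not overlap, but the gap between them, from 35.8 to 36.8 CPM, was small beside the distance of PBS tumor 1 from both. By FPKM they overlapped, with 4.84 in GB2 tumor 3 and 4.83 in PBS tumor 2, and 3 rather than 4 members had GB2 tumors all below PBS tumors on that scale, against 5.39% of the genes with FPKM values tested. The log2 fold change of Mrpl33 was -0.80 (standard error, SE, 0.38), and -0.17 (SE 0.12) without PBS tumor 1. Mrpl27, whose bacterial homolog reaches towards the peptidyl transferase center, had 69.6, 28.4 and 31.3 CPM in PBS tumors and 26.5, 27.3 and 27.3 CPM in GB2 tumors. The GB2 values were nearly equal, and PBS tumor 1 was again the outlying value. The log2 fold change of Mrpl27 was -0.67 (SE 0.34), and -0.13 (SE 0.12) without that tumor.

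Mrpl34, another homolog of a bacterial protein, had 94.2, 30.9 and 24.0 CPM in PBS tumors and 29.0, 25.6 and 27.4 CPM in GB2 tumors. The GB2 tumors lay between the other PBS tumors, and its log2 fold change went from -0.86 (SE 0.48) with all tumors to 0.0051 (SE 0.16) without PBS tumor 1. The remaining large subunit genes of this rank, Mrpl52, Mrpl53 and Mrpl54, are specific to mitochondria. Their log2 fold changes were -0.83, -0.64 and -0.70 with all tumors. Without PBS tumor 1 they were -0.088, -0.045 and -0.23. Mrpl53 overlaps Gm42688 on the same strand over 900 bases, and reads of this pair cannot be assigned with certainty.

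Among the small subunit genes, Mrps21 had the smallest p of all members. Its CPM was 72.0, 29.1 and 20.6 in PBS tumors and 20.4, 20.7 and 21.4 in GB2 tumors, means of 40.6 ± 27.6 and 20.8 ± 0.492 (SD, n = 3). PBS tumor 3 lay within the GB2 range and PBS tumors 1 and 2 above it. Its log2 fold change was -0.96 (SE 0.43, adjusted p = 0.746 by the edgeR quasi-likelihood test, Benjamini-Hochberg adjusted), and -0.24 (SE 0.18) without PBS tumor 1.

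Mrps16, a homolog of a bacterial protein, had 23.5, 14.8 and 14.8 CPM in PBS tumors and 12.2, 13.9 and 13.8 CPM in GB2 tumors. The groups did not overlap, and the log2 fold change was -0.41 (SE 0.25) with all tumors and -0.14 (SE 0.17) without PBS tumor 1. Mrps24, a homolog of a bacterial protein at the mRNA entry, and Mrps26 and Mrps34, which are specific to mitochondria, had log2 fold changes of -0.73, -0.53 and -0.56. Without PBS tumor 1 these were -0.15, -0.052 and -0.19. Mrps34 shares 1003 bases on the same strand with Nme3.

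**Figure D2:**
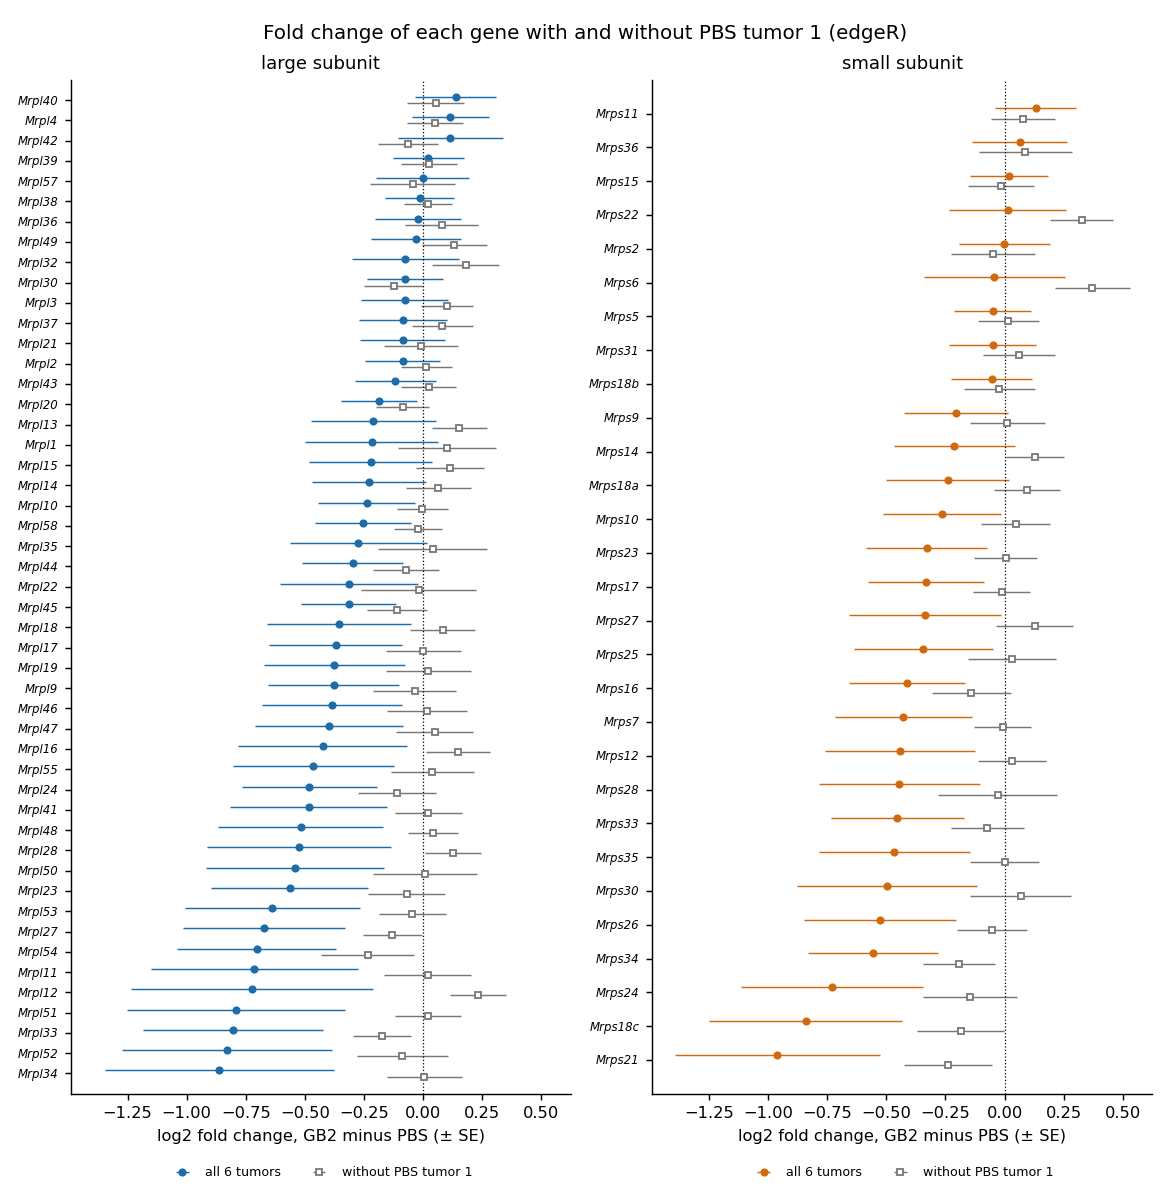
Log2 fold change, GB2 minus PBS, of each large (left) and small (right) subunit gene by edgeR, with bars of 1 SE; filled circles use all 6 tumors and open squares leave out PBS tumor 1. With all tumors 70 of 78 genes lie below 0, and without PBS tumor 1 the values fall between -0.24 and 0.37.

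The lean to lower values rested on PBS tumor 1. Without it, the median log2 fold change was 0.021 for the large subunit and 0.0045 for the small subunit, and 46 of 78 members were above 0. The log2 fold change was within 0.25 of 0 for 76 of 78 members, against 33 with all tumors, and its SE ranged from 0.10 to 0.25. At an unadjusted p under 0.05, edgeR then gave 0 members lower (2.65% of all genes) and 1 higher (6.36%). That gene was Mrps22, at a log2 fold change of 0.33 (SE 0.13, adjusted p = 0.541 by the edgeR quasi-likelihood test, Benjamini-Hochberg adjusted). The other value outside 0.25 was that of Mrps6, at 0.37, which overlaps Slc5a3 on the same strand. Both were named after their values were seen. With 3 GB2 and 2 PBS tumors, the GB2 tumors all lay below the PBS tumors in 4 members (11.8% of all genes) and all above in 7 (14.6%).

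Leaving out either of the other PBS tumors moved the values the other way. Without PBS tumor 3, 15 members were lower in GB2 tumors at an unadjusted p under 0.05 (10 large and 5 small), or 15 of 78 against 5.25% of all genes, with Mrps21 at a log2 value of -1.27. Without PBS tumor 2 there were 5 (3 large and 2 small), against 2.75% of all genes. Members with GB2 tumors all below PBS tumors numbered 15 without PBS tumor 3 (14.6% of all genes), 8 without PBS tumor 2 (11.1%) and 19 without GB2 tumor 3 (12.5%). In these cases 0 members passed the adjusted limit by the edgeR quasi-likelihood test, Benjamini-Hochberg adjusted.

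In PBS tumor 1 most members of both subunits were high together. This tumor had the highest CPM of the 6 in 67 of 78 members (43 large and 24 small), or 85.9%, against 31.8% of all genes tested. It had the lowest CPM in 5 of 78 members and in 6234 of 19602 genes tested, so it was often at either extreme over all genes. Set against the median of the other 5 tumors, PBS tumor 1 was 1.76-fold higher in the median member, and the log2 excess had a median of 0.83 for the large and 0.79 for the small subunit, against -0.029 over all genes. It was at least 2-fold higher in 29 members (18 large and 11 small), or 37.2%, against 12.2% of all genes, and at least 3-fold higher in 5. Among the other 5 tumors the median SD of the members' log2 CPM was 0.14, against 0.29 over all genes. The genes tested include ones with far lower counts than any member, and genes of similar level were not compared.

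The excess of PBS tumor 1 was not shared by all members. It was largest for Mrpl12, with 401 CPM in PBS tumor 1 against 103 to 135 CPM in the others, a ratio of 3.51. Mrps21 (3.48), Mrpl34 (3.43), Mrpl51 (3.28, named after its values were seen) and Mrpl52 (3.16) also exceeded 3-fold. In 10 members PBS tumor 1 lay below the median of the others. The lowest ratio, 0.648, was that of Mrpl42, which was named after its values were seen. It had 41.7, 72.9 and 60.2 CPM in PBS tumors and 64.4, 58.9 and 66.1 CPM in GB2 tumors, so that PBS tumor 1 was its lowest tumor and the groups overlapped.

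**Figure D3:**
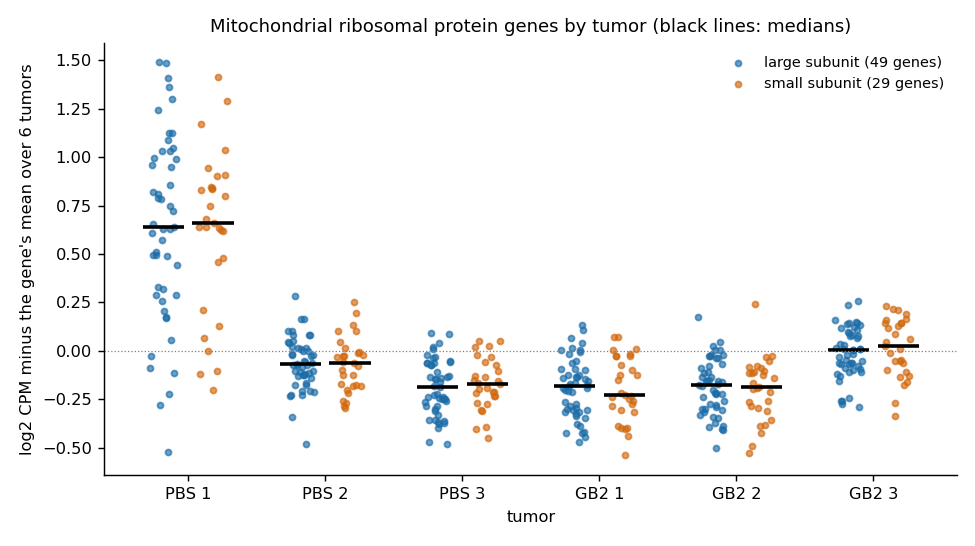
Log2 CPM of each gene minus its mean over the 6 tumors, by tumor; each point is a gene, large subunit in blue and small subunit in orange, and black lines are medians. PBS tumor 1 has medians of 0.64 (large) and 0.66 (small), and the medians of the other 5 tumors lie between -0.23 and 0.03.

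The GB2 tumors also differed among themselves. GB2 tumor 3 had the highest CPM of the GB2 tumors in 61 of 78 members (39 large and 22 small), or 78.2%, against 37.0% of all genes tested. The median deviation from the gene means over both subunits was 0.0069 in GB2 tumor 3, against -0.19 and -0.18 in GB2 tumors 1 and 2, and 0.65, -0.066 and -0.18 in the PBS tumors. GB2 tumors 1 and 2 thus lay level with PBS tumor 3, and GB2 tumor 3 lay slightly above PBS tumor 2.

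The sums of large and of small subunit genes were both highest in PBS tumor 1 and next highest in GB2 tumor 3. The summed CPM of the 49 large subunit genes was 4103, 2322 and 2133 in PBS tumors and 2140, 2174 and 2423 in GB2 tumors. That of the 29 small subunit genes was 1977, 1189 and 1085 in PBS tumors and 1100, 1077 and 1247 in GB2 tumors. The lowest tumor was PBS tumor 3 for the large and GB2 tumor 2 for the small subunit, and for both sums the GB2 tumors overlapped the other PBS tumors. All members together took 0.555% of the counts in PBS tumor 1 and 0.323% to 0.380% in the other tumors.

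The ratio of the large to the small subunit sum was 2.08, 1.95 and 1.97 in PBS tumors and 1.95, 2.02 and 1.94 in GB2 tumors, means of 2.00 ± 0.0676 and 1.97 ± 0.0433 (SD, n = 3). By FPKM it was 2.42, 2.27 and 2.25 in PBS tumors and 2.31, 2.30 and 2.26 in GB2 tumors. On both scales the groups overlapped, and the difference between their means was smaller than the SD among PBS tumors. PBS tumor 1, with a large subunit sum 1.89 times and a small subunit sum 1.80 times the median of the other tumors, had the highest ratio, 1.06 times their median by CPM. Since the sums follow the choice of members, these ratios are a description with no test.

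The Mrps18 paralogs, which take separate places in the ribosome, differed in how far they followed this pattern. Mrps18c, placed in the small subunit, had 38.8, 14.8 and 14.1 CPM in PBS tumors and 10.9, 13.7 and 13.2 CPM in GB2 tumors. Mrps18a, placed in the large subunit, had 57.2, 31.6 and 33.6 CPM in PBS tumors and 31.0, 34.2 and 38.4 CPM in GB2 tumors. Mrps18b, also of the small subunit, had 36.9, 34.6 and 36.4 CPM in PBS tumors and 30.0, 34.4 and 39.3 CPM in GB2 tumors. PBS tumor 1 was clearly the highest for Mrps18c and Mrps18a, while for Mrps18b the highest tumor was GB2 tumor 3. The ratio of PBS tumor 1 to the median of the others was 2.83, 1.70 and 1.07 for Mrps18c, Mrps18a and Mrps18b. The log2 fold changes were -0.84 (SE 0.41), -0.24 (SE 0.26) and -0.055 (SE 0.17), and without PBS tumor 1 they were -0.18, 0.097 and -0.022.

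Other members with known particular roles were Mrpl58, Mrps12 and Mrps36. Mrpl58, a peptidyl-tRNA hydrolase that rescues stalled ribosomes, had 72.0, 48.1 and 48.6 CPM in PBS tumors and 49.2, 45.4 and 47.1 CPM in GB2 tumors. Mrps12, at the decoding center, had 47.6, 22.6 and 22.0 CPM in PBS tumors and 21.1, 22.2 and 24.6 CPM in GB2 tumors. In both only PBS tumor 1 was apart and the other 5 tumors overlapped. Mrps36 had 19.8, 22.6 and 16.0 CPM in PBS tumors and 20.8, 18.8 and 21.5 CPM in GB2 tumors, with no tumor apart. The log2 fold changes of the 3 genes were -0.25 (SE 0.20), -0.44 (SE 0.32) and 0.064 (SE 0.20). Without PBS tumor 1 they were -0.022, 0.033 and 0.089, so that Mrps12 changed sign.

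The promoter windows of these genes were searched for short motifs of factors known at genes of mitochondrial proteins, as a feature that the choice of members did not use. The windows are 300-base stretches around the annotated start from RefSeq (GRCm38.p6), and 69 of 78 members matched by symbol. The motifs were a core of the ETS family motif bound by GABPA (CCGGAAG), of YY1 (AAGATGGC) and of NRF1 (GCGCATGC), each searched on both strands. The ETS core stood in 26 of 69 member windows (37.7%), against 17.5% of the windows of tested genes and 9.93% of all 27025 windows. The YY1 core stood in 12 (17.4%), against 4.67% and 3.19%. The NRF1 core stood in 8 (11.6%; 7 large and 1 small), against 5.20% and 3.05%. At least 1 of the 3 was present in 38 (55.1%), against 24.8% of tested and 14.9% of all windows. The ETS and YY1 cores can overlap by the letters AAG, but matches of different motifs overlapped in 0 members. A match is a description of the letters and not of binding.

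Windows are shown for Mrps21, which had the smallest p, for the Mrps18 paralogs, which followed the tumor pattern to different degrees, and for Mrpl42, which went against it. They read 5′ to 3′ on the strand of the gene, and capitals mark the motif letters on either strand. They lie at chr3:95871465-95871764 (Mrps21, minus strand), chr17:46110754-46111053 (Mrps18a, plus), chr17:35916391-35916690 (Mrps18b, minus), chr5:100798509-100798808 (Mrps18c, plus) and chr10:95501900-95502199 (Mrpl42, minus).
Mrps21: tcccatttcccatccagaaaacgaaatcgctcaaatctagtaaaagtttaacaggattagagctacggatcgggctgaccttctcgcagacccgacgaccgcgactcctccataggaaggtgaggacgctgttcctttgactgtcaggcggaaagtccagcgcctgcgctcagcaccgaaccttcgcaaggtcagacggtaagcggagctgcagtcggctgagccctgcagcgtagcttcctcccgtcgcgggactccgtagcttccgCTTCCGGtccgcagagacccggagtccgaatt
Mrps18a: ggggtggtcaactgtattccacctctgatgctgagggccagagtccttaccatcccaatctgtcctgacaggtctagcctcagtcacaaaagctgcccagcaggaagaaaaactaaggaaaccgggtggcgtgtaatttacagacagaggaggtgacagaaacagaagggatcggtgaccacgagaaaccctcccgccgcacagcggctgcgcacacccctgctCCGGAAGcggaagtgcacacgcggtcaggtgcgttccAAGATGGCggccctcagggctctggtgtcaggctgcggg
Mrps18b: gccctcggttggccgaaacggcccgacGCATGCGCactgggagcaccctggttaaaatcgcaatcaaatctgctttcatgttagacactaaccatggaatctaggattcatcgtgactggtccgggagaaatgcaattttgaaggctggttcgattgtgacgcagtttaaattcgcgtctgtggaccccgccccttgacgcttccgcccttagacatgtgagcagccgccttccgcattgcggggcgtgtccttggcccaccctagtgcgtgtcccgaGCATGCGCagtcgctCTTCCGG
Mrps18c: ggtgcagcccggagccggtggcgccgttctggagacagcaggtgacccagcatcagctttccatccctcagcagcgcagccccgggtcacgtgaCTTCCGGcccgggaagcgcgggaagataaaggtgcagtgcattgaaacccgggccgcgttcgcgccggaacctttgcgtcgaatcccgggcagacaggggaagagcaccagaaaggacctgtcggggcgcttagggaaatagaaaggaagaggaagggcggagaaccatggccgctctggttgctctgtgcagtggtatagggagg
Mrpl42: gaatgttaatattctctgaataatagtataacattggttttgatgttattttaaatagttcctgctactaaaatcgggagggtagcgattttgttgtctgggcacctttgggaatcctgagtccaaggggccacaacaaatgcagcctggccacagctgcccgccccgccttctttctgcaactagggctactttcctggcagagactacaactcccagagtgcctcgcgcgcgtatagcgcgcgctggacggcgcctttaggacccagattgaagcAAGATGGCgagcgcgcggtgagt

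The ETS core was present in the windows of Mrps21 and of all Mrps18 paralogs, whether their PBS tumor 1 ratio was 3.48 (Mrps21) or 1.07 (Mrps18b). Mrps18a also held the YY1 core, Mrps18b the NRF1 core at separate positions, and Mrpl42 the YY1 core only. Over all members with a window, the median log2 excess of PBS tumor 1 was 1.02 in the 26 with the ETS core and 0.74 in the 43 without it. With any of the 3 motifs it was 0.84 (38 members) and with none 0.79 (31 members). These medians are given without a test.

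The excess of PBS tumor 1 was present in members of every transcript length. In members with a median annotated coding transcript of up to 750 nt, the median log2 excess was 1.10 (21 members), against 0.26 in tested protein-coding genes of that length. It was 0.81 against 0.28 from 750 to 1000 nt, 0.61 against 0.18 from 1000 to 1500 nt, 0.74 against 0.0073 from 1500 to 2500 nt, and 0.88 (12 members) against -0.29 above 2500 nt. Across all protein-coding genes shorter transcripts thus had higher values in PBS tumor 1. Across the 78 members, which share the same 6 libraries, the correlation of log2 length with the excess was -0.083 (Pearson) and -0.16 (Spearman), given as a description.

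Of the 5 mitochondrial ribosome subunits with other names, 4 were highest in PBS tumor 1 and 4 had a log2 fold change below 0. Chchd1, a small subunit protein, had 61.6, 20.9 and 19.2 CPM in PBS tumors and 18.6, 19.3 and 21.0 CPM in GB2 tumors, and Dap3, a GTP-binding small subunit protein, had 151, 81.7 and 85.1 CPM against 76.6, 76.3 and 81.6 CPM. PBS tumor 1 was high in both, and for Dap3 the groups did not overlap. Gadd45gip1 of the large subunit and Aurkaip1 of the small subunit had log2 fold changes of -0.56 and -0.22, and Ptcd3 of the small subunit had 0.042. Without PBS tumor 1 these were -0.017, 0.0046 and 0.10, and Chchd1 and Dap3 went from -0.79 and -0.44 to -0.015 and -0.080. The list median was -0.44 with all tumors and -0.015 without PBS tumor 1, and none had an unadjusted p under 0.05.

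Lists of factors that build or serve the mitochondrial ribosome had medians closer to 0. Of 14 translation factors, 8 had a log2 fold change below 0 and 6 above, with a median of -0.12 and none at an unadjusted p under 0.05. Without PBS tumor 1 the median was 0.058 and 8 of 14 were above 0. That tumor was the highest in 9 of the 14, with a median log2 excess of 0.47. Slirp, an RNA-binding partner of Lrpprc, had the smallest p in this list, with a log2 fold change of -0.84 (SE 0.41), and Mtif3, an initiation factor, had -0.48 (SE 0.29). They were at -0.27 and -0.10 without PBS tumor 1. Taco1, a translational activator with the next smallest p, went from 0.32 (SE 0.20) to 0.36. Of 26 assembly and rRNA modification factors, 18 were below 0 and 8 above, with a median of -0.10. The median was 0.086, and 16 of 26 were above 0, without PBS tumor 1. That tumor was the highest in 18 of the 26, with a median log2 excess of 0.48. At an unadjusted p under 0.05, 2 of the 26 were lower in GB2 tumors, beside the 2.24% of all genes given above. These were Malsu1, at a log2 fold change of -0.85 (SE 0.33), and Mpv17l2, at -0.46 (SE 0.19), both assembly factors of the large subunit, and neither passed the adjusted limit. Their values without PBS tumor 1 were -0.39 and -0.32. Rbfa, which acts on the small subunit rRNA, had -0.54 with all tumors and -0.15 without that one. Of 20 mitochondrial aminoacyl-tRNA synthetases and amidotransferase subunits, which charge the tRNAs, 12 were below 0 and 8 above, with a median of -0.053 and none at an unadjusted p under 0.05, and the median log2 excess of PBS tumor 1 was 0.028. Without that tumor their median was -0.018, with 9 of 20 above 0. Fars2, Hars2 and Cars2 had the smallest p of this list, at -0.43, -0.32 and -0.35 with all tumors and -0.14, -0.14 and -0.13 without that one. Whether these lists differ from the members was not tested.

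Cytosolic ribosomal protein and nuclear respiratory chain genes were also high in PBS tumor 1. The 78 cytosolic ribosomal protein genes had a median log2 excess of 0.92 in that tumor and the 84 nuclear respiratory chain genes tested 0.93, and PBS tumor 1 was their highest tumor in 68 and 73 genes. At an unadjusted p under 0.05 by edgeR, 6 of the 78 cytosolic genes were lower in GB2 tumors and 1 higher. Of the 84 respiratory chain genes, 6 were lower and 0 higher. Over all genes 2.24% were lower and 4.69% higher, and no gene of either list was called. The median log2 fold changes of the cytosolic and respiratory chain lists were -0.51 and -0.48 with all tumors. Without PBS tumor 1 they were -0.15 (7 of 78 above 0) and -0.10 (21 of 84 above 0). Whether this differs from the members, of which 46 of 78 were then above 0, was not tested. The mRNAs that the mitochondrial ribosome translates went the other way. The 13 protein-coding genes of mitochondrial DNA had a median log2 excess of -2.17 in PBS tumor 1, which was the lowest tumor in 11 of them. Their summed CPM, scaled to the library total without TMM, was 9360, 35908 and 33131 in PBS tumors and 35183, 29097 and 25702 in GB2 tumors. PBS tumor 1 thus lay far below the rest, and the GB2 tumors overlapped or lay below the other PBS tumors. Their median log2 fold change was 0.17 with all tumors and -0.22 without PBS tumor 1, with 10 and then 0 of 13 above 0. Those with the smallest p, mt-Nd3, mt-Nd6 and mt-Nd4l, had -0.32, -0.34 and 0.50 with all tumors and -0.37, -0.46 and -0.023 without PBS tumor 1. The mitochondrial rRNAs, which carry only short A tails, had log2 fold changes of -0.44 (mt-Rnr1) and -0.32 (mt-Rnr2) with all tumors, and -0.16 and -0.50 without PBS tumor 1. For mt-Rnr1 PBS tumor 1 was the highest tumor, with 335 CPM against 159 to 228 CPM in the others. For mt-Rnr2 it had 192 CPM, within the range of the others (180 to 372 CPM). Of 13 regulators of mitochondrial gene transcription, 7 were below 0 and 6 above, with a median of -0.070, and the median log2 excess of PBS tumor 1 was -0.088. Without that tumor the median was 0.043 and 7 of 13 were above 0. Yy1, Ppargc1a and Tfb2m had the smallest p of this list, at -0.31, 0.44 and 0.28 with all tumors and -0.16, 0.55 and 0.17 without that one.

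**Figure D4:**
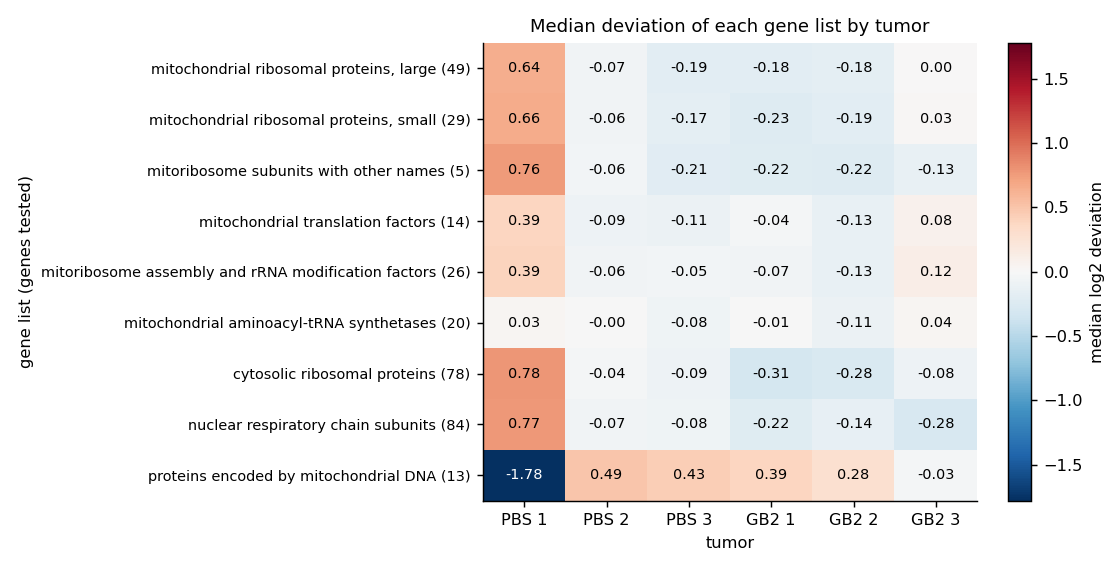
Median over each gene list (number of genes tested in brackets) of log2 CPM minus the gene's mean over the 6 tumors, by tumor, with red for higher and blue for lower. In PBS tumor 1 the mitochondrial ribosomal protein genes lie at 0.64 and 0.66, close to the cytosolic ribosomal protein (0.78) and nuclear respiratory chain (0.77) genes, and the genes of mitochondrial DNA lie at -1.78.

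Markers of other cells were looked at beside these values, with sums of CPM scaled to the library total without TMM. The erythroid list (Hba-a1, Hba-a2, Hbb-bs, Hbb-bt and Alas2) was highest in PBS tumor 1 in 5 of 5 genes, none of them at 0 in every tumor. Its summed CPM was 6824, 2714 and 516 in PBS tumors and 1314, 115 and 98.0 in GB2 tumors, so that PBS tumor 2 was also high in this list but not in the mitochondrial ribosomal protein genes. The 12 macrophage markers summed to 67.7 to 94.7 CPM in PBS tumors and 265 to 381 CPM in GB2 tumors, without overlap, and the 8 fibroblast markers to 300 to 530 CPM and 974 to 1401 CPM. Endothelial markers summed to 49.5 to 69.6 CPM and 108 to 128 CPM, neutrophil markers to 2.1 to 4.5 CPM and 9.1 to 12.5 CPM (Ly6g was at 0 in every tumor), and skeletal muscle markers to 114 to 193 CPM and 232 to 272 CPM, also without overlap. Of the 6 endothelial markers, 5 had a log2 fold change above 0. The other, Vwf, was at -0.48 with all tumors and -0.36 without PBS tumor 1. Of the 12 proliferation genes PBS tumor 1 was the highest tumor in 7, but 9 of 12 had a log2 fold change above 0 (12 of 12 without PBS tumor 1). Their sum was 2656 to 3598 CPM in PBS and 3660 to 4318 CPM in GB2 tumors. That gap rests on the scaling to the library total. The TMM factor was 0.914 in PBS tumor 1 and 1.03 in GB2 tumor 1, and in TMM-scaled CPM the groups overlapped. T cell, adipocyte and keratinocyte markers had sums that overlapped between the groups. The part of these cell types and of blood in the members' values was not tested.

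Counts of some members are uncertain because of neighbors. In the table's own positions 30 members overlap another tested gene, 7 of them on the same strand and 26 on the other, with some in both counts. Besides those named above, Mrpl18 shares 645 bases with the abundant Tcp1 on the opposite strand, and Mrpl33 lies over 39946 bases with Rbks on the opposite strand. The libraries were stranded by the labels, but the counting setting was not stated.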

How the data were processed

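RNA-seq of 3 PBS and 3 GB2 MC38 tumors was taken from 1 table of the series. The estimated counts that the authors deposited are whole numbers per gene, unscaled between tumors, and rise by about 4 for 1 read pair. The deposited FPKM values take transcript length and library total into account. The submitters' processing notes name cutadapt 1.9, HISAT2 2.2.1, StringTie 2.1.6, DESeq2, edgeR and mm10, with no role given, but only 595 of 31999 genes shared with a GRCm38 annotation have the same position, so positions of the table and of the RefSeq promoters (GRCm38.p6) were never combined. No column of other samples was present.

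Counts were analyzed in R 4.3.3 with edgeR 4.0.16 (filterByExpr with a minimum count of 10, TMM, glmQLFit and glmQLFTest, Benjamini-Hochberg adjustment over 19602 genes). The limits for a call, an FDR under 0.05 with at least a 2-fold change, are those of the study. CPM are counts scaled to the TMM-adjusted library size, log2 CPM used a prior count of 2, and standard errors came from the test statistic. Summed CPM of the related and marker lists are the exception, being scaled to the library total without TMM. The biological coefficient of variation was 40.5%. The fit was tested on simulated data. Alternatives were DESeq2 1.42.0, other scalings, no filter, counts divided by 4, limma 3.58.1 on log2(FPKM + 1) or log2(FPKM + 0.1) with genes above 0.5 FPKM or all genes, the replicate number as a block, and each tumor left out. Replicate numbers did not pair the tumors: deviations of same-numbered tumors correlated at 0.031, 0.15 and -0.24.

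The members and lists were chosen with earlier results of these data known. Values are given for the 6 members of each subunit with the smallest p, the 3 with the highest and 2 with the lowest mean FPKM, those whose groups do not overlap, and Mrps18a, Mrps18b, Mrps18c, Mrpl12, Mrpl58, Mrps12 and Mrps36. Of the related lists, values are given for the subunits with other names and for up to 3 genes with the smallest p. Protein sequences of the Mrps18 paralogs were not compared here.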

Additional observations from a re-analysis of the deposited data

How the results depend on the processing

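Across the 16 alternatives 0 members were called. The medians of both subunits kept their sign in 15. Leaving out 1 tumor at a time moved the large subunit median from -0.46 to 0.021 and the small subunit median from -0.50 to 0.0045, both ends above 0 being the value without PBS tumor 1. Members above 0 numbered 8 as reported, 18 with library size only, 20 in each of the 3 limma fits on FPKM, and 4 (without PBS tumor 3) to 46 (without PBS tumor 1) with a tumor left out, with 14 without GB2 tumor 2. Members lower at an unadjusted p under 0.05 numbered 3 by DESeq2 and 0 to 15 with a tumor left out (5 without PBS tumor 2 and 15 without PBS tumor 3), and members higher 0 to 1 (without PBS tumor 1). Members with GB2 tumors all below PBS tumors numbered 4 as reported, 3 by FPKM in the limma fits, and 4 to 19 with a tumor left out. The count was 8 when PBS tumor 2 (11.1% of all genes), 15 when PBS tumor 3 (14.6%) and 19 when GB2 tumor 3 (12.5%) was left out. Members with GB2 tumors all above PBS tumors numbered 0 to 7 with a tumor left out. The count of 7, against 14.6% of all genes, was that without PBS tumor 1. The large minus small difference of medians, 0.018 as reported, was -0.0099 by limma on log2(FPKM + 1) with or without the filter, -0.0075 on log2(FPKM + 0.1), and -0.044 (without GB2 tumor 3) to 0.040 with a tumor left out, with -0.013 without GB2 tumor 2. Mrpl32 and Mrps18b changed sign under library size only (0.00041 and 0.0064), limma on log2(FPKM + 1) with or without the filter (0.025 and 0.014) and on log2(FPKM + 0.1) (0.032 and 0.014). The cause was not tested, but library size only shifted the median of all genes from -0.016 to 0.042. With a tumor left out, the log2 fold change spanned 0 for Mrpl1 (-0.41 to 0.10), Mrpl12 (-1.04 to 0.23), Mrpl18 (-0.57 to 0.083), Mrpl32 (-0.20 to 0.18), Mrpl34 (-1.19 to 0.0051), Mrps12 (-0.63 to 0.033), Mrps18a (-0.39 to 0.097), Mrps18b (-0.16 to 0.039), Mrps23 (-0.52 to 0.0045), Mrps30 (-0.72 to 0.068) and Mrps36 (-0.055 to 0.19). With the replicate number as a block, which is not a pairing of the tumors, the medians were -0.27 and -0.27, with large minus small at -0.0055, 10 members were above 0 and 0 were called. A biological coefficient of variation of 40.5% and 3 tumors per group limit the changes that can be shown.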

Other observations

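The table also lists 5 pseudogenes of members, which the rule on symbols leaves out. Their counts ranged from 3 to 127 per tumor, and 4 of the 5 passed the filter. Mrpl48-ps had 127, 45 and 68 counts in PBS tumors and 54, 95 and 62 in GB2 tumors, and Mrpl23-ps1 had 90, 40 and 24 against 71, 23 and 54. In both PBS tumor 1 was the highest tumor and the groups overlapped. Mrps36-ps1 had 6, 41 and 14 against 6, 18 and 21, with PBS tumor 1 among the lowest. The smallest count of a member in any tumor was 689, above each of these.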
